A study of Homo sapiens with 12 samples.

Results

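The Hippo kinases LATS1, LATS2, STK3 (MST2) and STK4 (MST1), their partners SAV1 and NF2, the angiomotins AMOT, AMOTL1 and AMOTL2, and the LIM protein AJUBA were followed across all groups of the series. They were picked by gene symbol, with earlier results of these data known. All 10 were found among the 58735 genes of the count table and among the 18415 genes tested. Poly(A) RNA-seq was done in SW872, a human liposarcoma cell line that stably expressed a fusion protein found in epithelioid hemangioendothelioma, either TAZ-CAMTA1 (TC) or YAP-TFE3 (YT). Each line also carried a non-targeting short hairpin RNA (shNT), one against YEATS2 (shYEATS2) or one against ZZZ3 (shZZZ3), whose products belong to ATAC, a histone acetyltransferase complex. The 6 groups were therefore TC shNT, TC shYEATS2, TC shZZZ3, YT shNT, YT shYEATS2 and YT shZZZ3, with 2 libraries in each and 17451893 to 29294805 counts in each library. All 12 libraries expressed a fusion, so that no comparison here is with fusion-free cells, and the lines were drug-selected pools of cells from a single parental line. The SW872 RNA-seq is described as done in biological duplicates, and replicates of the sequencing studies in general as separate transductions (stated for triplicates), but whether the hairpin lines were transduced separately is not stated. The p-values measure the spread between such libraries. For other RNA-seq of the study, CAMTA1-containing lines were collected before confluence and other lines at confluence. If that also held here, the fusion and the density of the culture cannot be told apart in a comparison of YT with TC.

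The Hippo pathway is a kinase cascade that restrains the transcriptional coactivators YAP and TAZ. The MST kinases STK3 and STK4, held by the scaffold SAV1, activate the LATS kinases, which phosphorylate YAP and TAZ and so keep them out of the nucleus. NF2 (merlin) is a membrane-associated scaffold that recruits LATS1 and LATS2 to the cell cortex, and the angiomotins are junction and actin-binding proteins that bind YAP and can hold it in the cytoplasm. AJUBA is a LIM domain protein that can bind and restrain LATS kinases at adherens junctions. LATS2, AMOTL2 and AJUBA are known as target genes of YAP, TAZ and their DNA-binding TEAD partners, so that they belong to the feedback of the pathway. In epithelioid hemangioendothelioma the fusions retain the TEAD-binding end of YAP or TAZ.

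The 3 feedback genes each have a reference promoter window that holds the TEAD core, and these windows are shown because the same 3 genes carry the main differences between the lines. Windows run from 250 bases before to 50 bases after a start site (RefSeq, GRCh38.p14) and are printed on the strand of the gene, with motif letters in capitals. The motifs searched were the TEAD core CATTCC, which reads GGAATG on the other strand, and the E-box CACGTG, a palindrome bound by TFE3-family factors, and no match of one overlapped a match of the other.
LATS2: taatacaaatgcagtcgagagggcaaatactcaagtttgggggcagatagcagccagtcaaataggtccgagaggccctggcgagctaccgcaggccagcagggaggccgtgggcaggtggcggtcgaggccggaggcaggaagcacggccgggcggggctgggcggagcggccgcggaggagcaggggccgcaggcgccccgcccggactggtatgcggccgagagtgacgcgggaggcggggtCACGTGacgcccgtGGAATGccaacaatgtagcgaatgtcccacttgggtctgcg
AMOTL2: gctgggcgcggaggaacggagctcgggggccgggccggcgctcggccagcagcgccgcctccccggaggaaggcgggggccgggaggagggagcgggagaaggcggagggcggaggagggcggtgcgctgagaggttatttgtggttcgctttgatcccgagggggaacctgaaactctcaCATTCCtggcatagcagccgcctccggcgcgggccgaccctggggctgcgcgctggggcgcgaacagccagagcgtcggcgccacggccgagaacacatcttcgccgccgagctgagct
AJUBA: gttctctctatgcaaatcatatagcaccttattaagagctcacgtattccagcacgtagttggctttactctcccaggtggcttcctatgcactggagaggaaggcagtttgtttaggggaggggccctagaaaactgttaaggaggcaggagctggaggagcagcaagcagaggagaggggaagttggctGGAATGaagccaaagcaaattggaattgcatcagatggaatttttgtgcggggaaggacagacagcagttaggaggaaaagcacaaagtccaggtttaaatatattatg
The LATS2 window (chr13:21061537-21061836, minus strand) has an E-box 5 bases before the start and a TEAD core that begins 9 bases after it. In the AMOTL2 window (chr3:134374398-134374697, minus strand) the core lies 69 bases before a start inside the gene, and in the AJUBA window (chr14:22976793-22977092, minus strand) 59 bases before a start inside the gene. A second start of AMOTL2 and of AJUBA has a window without the core. Among 13 windows of the 9 members with an entry, the TEAD core was present in 3 and the E-box in 2, those of LATS2 and STK4. The core was present in 14% of all 35116 windows and the E-box in 7.3%, while 0.90% held both. By gene, a window with the core was found for 3 of the 9 members and for 16.7% of all 27305 genes. The E-box was found for 2 of the 9 members and for 8.8% of all genes. The motifs were chosen with these sequences in view, and the windows shown are those that hold the core. A match is a string of letters and not a shown binding site, and a link of the core to the changes was not tested. STK3 had no entry.

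The labelled cell type and the knock-down were checked first. All 7 mesenchymal markers were detected, with summed levels of 5404 to 12473 CPM (counts scaled to library size with TMM factors, as are all CPM below). FN1 made the largest part of this sum (2577 to 10540 CPM). Among called mesenchymal markers in YT, 2 rose and 1 fell after shYEATS2, while 3 rose and 1 fell after shZZZ3. In TC, 1 fell after shZZZ3. Between the shNT groups, 3 stood below their TC level in YT. COL1A2 was at 85.4 and 81.9 CPM in TC shNT and at 8.71 and 9.2 CPM in YT shNT. The part of these mesenchymal differences in the results was not tested. The 5 leukocyte markers summed to 1.43 to 7.74 CPM, with PTPRC at or below 0.158 CPM. CD14 and LYZ, 2 of these markers, were called higher in YT shYEATS2, CD14 going from 0.739 and 0.748 to 3.87 and 4.13 CPM and LYZ from 0.37 and 0.748 to 3.41 and 2.79 CPM. The 6 adipocyte markers summed to 122 to 341 CPM, almost all of it LPL (73.3 to 286 CPM) and PPARG (36.8 to 109 CPM), while LEP was at 0 in all libraries and ADIPOQ did not exceed 0.0516 CPM. The 6 epithelial markers summed to 288 to 915 CPM, led by KRT18 (215 to 739 CPM) and KRT8 (43.8 to 315 CPM), with EPCAM at or below 1.91 CPM and CDH1 at or below 0.65 CPM. Of the epithelial markers, 2 were called lower in YT shYEATS2 and 1 in YT shZZZ3. The part of the leukocyte and epithelial markers in the results for these groups was not tested. The 5 endothelial markers summed to 49.4 and 51.9 CPM in YT shNT and to 154 and 154 CPM in YT shZZZ3, and 2 of them were called higher there, and their part in the results for YT shZZZ3 was not tested. In TC shYEATS2 they summed to 59 and 269 CPM, with KDR at 12.8 and 133 CPM, and the part of this in the results for that group was not tested. YEATS2 fell in both lines, from 113 and 123 to 45.5 and 35.1 CPM in TC (log2 fold change -1.55, adjusted p = 0.0138) and from 115 and 117 to 33.9 and 38.5 CPM in YT (-1.68, adjusted p = 1.04e-04). ZZZ3 went from 71.2 and 49.1 to 12.6 and 29.6 CPM in YT shZZZ3 (-1.51, adjusted p = 0.0453), but in TC the change from 25.6 and 60.4 to 21.9 and 22.7 CPM was not called (-0.94, adjusted p = 0.45). ZZZ3 was also at 31.4 and 30.7 CPM in YT shYEATS2 (-0.96, adjusted p = 0.13).

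Per kilobase of exon, AJUBA was the most abundant of the 10 genes, with a mean of 25 CPM per kb and a range of 17.3 to 35.7 over the 12 libraries. AMOTL1 came next at 17.6 CPM per kb (12 to 24.3), followed by AMOTL2 at 11.3 (5.67 to 17.9) and NF2 at 10.4 (8.65 to 12.3). STK4 had 5.75 CPM per kb (4.56 to 6.64), LATS2 5.44 (3.42 to 8.6) and SAV1 4.65 (3.88 to 6.02). The lowest levels were those of LATS1 at 2.5 CPM per kb (1.9 to 3.01), AMOT at 1.63 (1.12 to 2.19) and STK3 at 1.39 (0.73 to 2.11). By these means AJUBA, AMOTL1, AMOTL2 and NF2 stood above the 4 kinases, while AMOT was among the lowest. The range of AMOTL2 overlapped those of STK4 and LATS2. Neighbours in this order overlapped in range over the libraries, except NF2 with STK4 and SAV1 with LATS1. With the longest transcript as the length, the first 5 ranks were the same, LATS2 and SAV1 changed places, and STK3 moved to rank 8 above LATS1 and AMOT. By group means with that length, STK4 exceeded AMOTL2 in YT shYEATS2 (12.7 against 12.1) and YT shZZZ3 (12.1 against 8.35). It also exceeded NF2 in YT shNT (12.3 against 11.8). SAV1 shares 31.9% of its exon bases with ATL1 on the opposite strand, which did not exceed 0.772 CPM in any library.

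**Figure D1:**
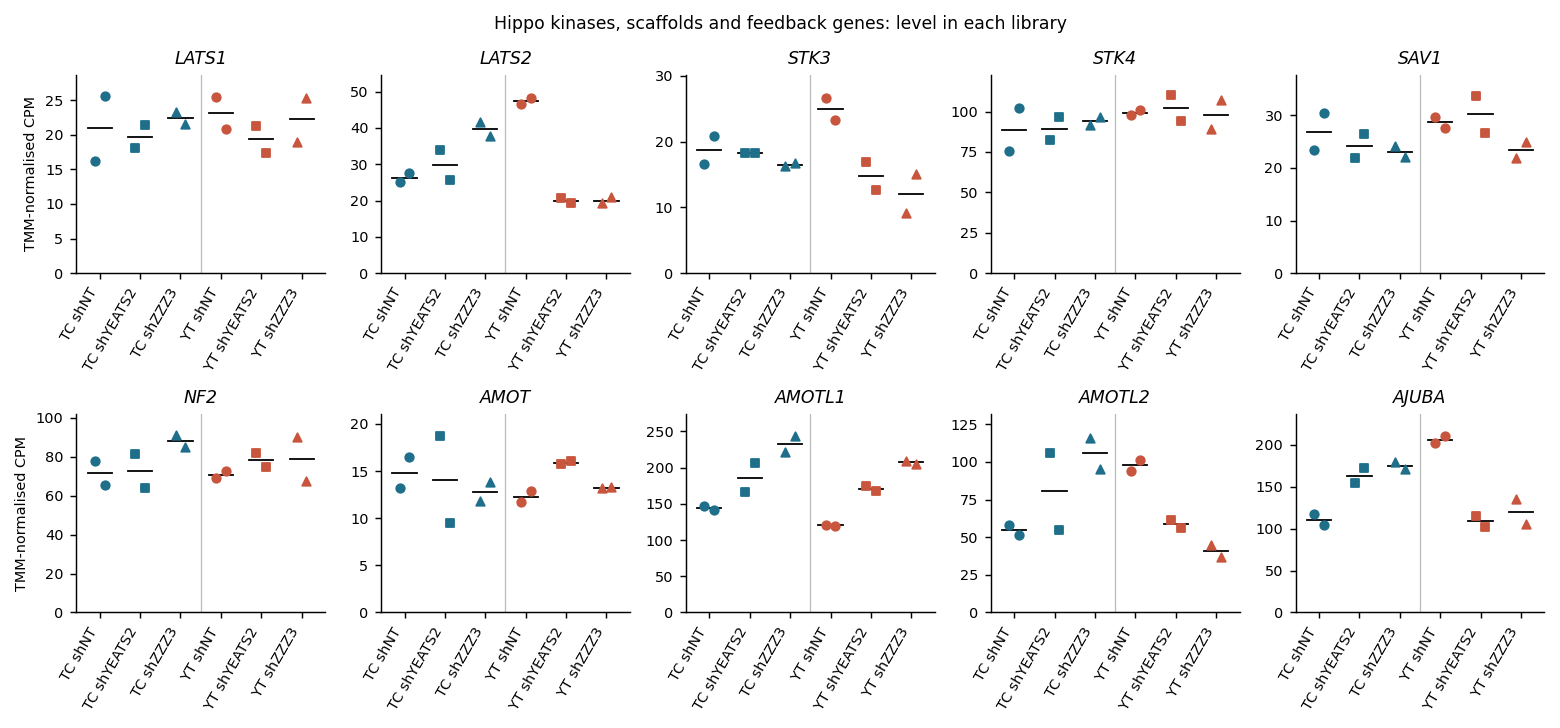
TMM-normalised CPM (vertical axes, from 0) of the 10 genes in each library of the 6 groups, with points for libraries and a bar for the group mean. In YT (right of the grey line) both shNT libraries of LATS2 and AJUBA lie above all 4 knock-down libraries, whereas both shNT libraries of AMOTL1 lie below them.

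In YT cells the feedback genes LATS2 and AJUBA fell with both hairpins and AMOTL1 rose with both. AMOTL2 and STK3 also fell with shZZZ3. With shYEATS2, 3 of the 10 genes were called, where 20.7% of all genes tested were. With shZZZ3, 5 of the 10 were called, where 10% of all genes were. By direction, 1 of the 10 rose and 2 fell with shYEATS2 (9.61% and 11.1% of all genes), and 1 rose and 4 fell with shZZZ3 (4.40% and 5.62% of all genes). The median log2 fold change of the 10 genes was -0.11 with shYEATS2 and -0.18 with shZZZ3, beside -0.01 and 0.01 for all genes. Both contrasts use the same shNT libraries, so that the lists called are not independent of each other. The 10 genes were chosen with earlier results of these data known. Their shares beside those of all genes, here and below, are therefore descriptions and not tests of an excess. In these bulk RNA samples, fewer cells of a type and less RNA per cell cannot be told apart.

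LATS2, the LATS kinase that is itself a target of YAP and TAZ, had 46.5 and 48.3 CPM in the YT shNT libraries, 20.7 and 19.4 CPM with shYEATS2 and 19.2 and 20.9 CPM with shZZZ3. The knock-down libraries lay together, all under the shNT libraries by more than the spread between duplicates. LATS2 fell by 1.24 on the log2 scale with shYEATS2 (SE 0.194, adjusted p = 0.00119, edgeR quasi-likelihood test) and by 1.24 with shZZZ3 (SE 0.194, adjusted p = 0.00257). The hairpins differed by -0.00 on the log2 scale, with a 95% interval from -0.42 to 0.42. Both falls were called under every one of the 9 alternative settings and with each of the 12 libraries left out.

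AJUBA was at 202 and 210 CPM in YT shNT, at 115 and 102 CPM after shYEATS2 and at 135 and 105 CPM after shZZZ3. The groups did not overlap, although the shZZZ3 duplicates were further apart than those of the other groups of this line. AJUBA fell by 0.93 on the log2 scale with shYEATS2 (SE 0.178, adjusted p = 0.00393) and by 0.78 with shZZZ3 (SE 0.177, adjusted p = 0.0172). The call with shZZZ3 was lost in a fit of its own 2 groups alone (adjusted p = 0.0806), without YT shZZZ3 replicate 2 (log2 fold change -0.62, adjusted p = 0.0756) and without either YT shNT library (adjusted p = 0.0909 and 0.125).

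AMOTL2, the angiomotin that is a target gene of the pathway, was at 94.2 and 101 CPM in YT shNT, at 61.3 and 56.3 CPM after shYEATS2 and at 44.5 and 36.8 CPM after shZZZ3. The 3 groups were ordered without overlap. With shZZZ3 the gene fell by 1.26 on the log2 scale (SE 0.270, adjusted p = 0.0131), a call that was lost without either YT shNT library or YT shZZZ3 replicate 2 (adjusted p = 0.0553 to 0.0976). With shYEATS2 the log2 fold change of AMOTL2 was -0.73 (SE 0.267, adjusted p = 0.0736), which did not pass the threshold. It passed under 6 of the 9 alternative settings, among them library totals (adjusted p = 0.0476), no count filter (0.0213), the fit of its own groups alone (1.04e-04) and GC correction (-0.96, adjusted p = 0.00633). The difference between the hairpins was -0.53 for AMOTL2, with a 95% interval from -1.12 to 0.05 and an adjusted p of 0.287, so that the larger change with shZZZ3 was not resolved.

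**Figure D2:**
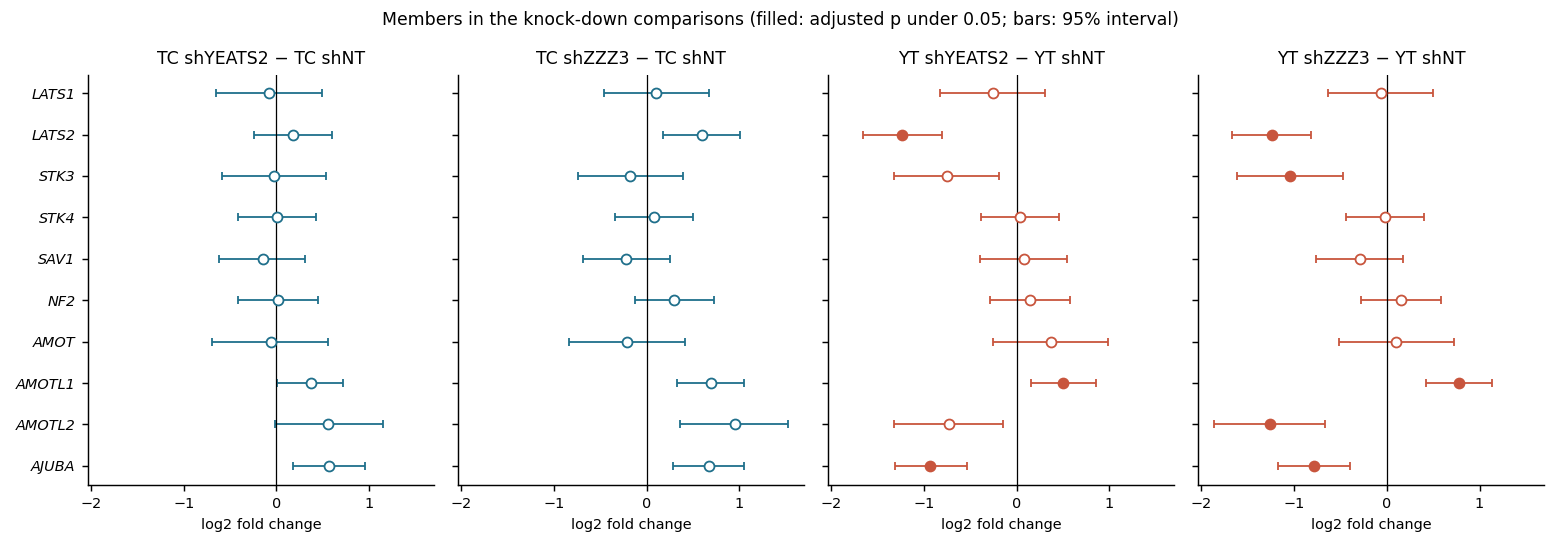
Log2 fold change (horizontal axes) of each gene in the 4 knock-down comparisons, with 95% intervals and filled points for an adjusted p under 0.05. LATS2, AJUBA and AMOTL2 lie left of 0 in both YT panels and right of 0 in both TC panels, and AMOTL1 lies right of 0 in all 4.

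In TC cells none of the 10 genes was called with either hairpin. With shYEATS2, 0.0434% of all genes were called, and DESeq2 called 0 of the 10 and 117 genes in all. An unadjusted p under 0.05 was found for 2 of the 10 and for 927 of the 18415 genes tested. With shZZZ3, 1.53% of all genes were called, and 4 of the 10 had an unadjusted p under 0.05 beside 1991 of the 18415. DESeq2 called 3 of the 10 (AMOTL1, AMOTL2 and AJUBA) where it called 2.89% of all genes. The median log2 fold change of the 10 genes was 0.02 with shYEATS2 and 0.20 with shZZZ3, beside -0.01 in both for all genes. Duplicates were not equally close in all groups. Over genes averaging 50 counts or more, the standard deviation of their log2 difference was 0.62 in TC shNT, 0.51 in TC shYEATS2 and 0.56 in YT shZZZ3. In TC shZZZ3, YT shNT and YT shYEATS2 it was 0.21, 0.27 and 0.26. The fit shares its estimate of a gene's spread over all groups, and TC shNT enters every TC knock-down comparison. The part of this inequality in the results was not tested.

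LATS2 was at 25.1 and 27.5 CPM in TC shNT, at 34.0 and 25.7 CPM in TC shYEATS2 and at 41.7 and 37.8 CPM in TC shZZZ3. The shZZZ3 libraries lay above the shNT libraries and the shYEATS2 libraries overlapped them. The log2 fold changes of LATS2 were 0.18 (SE 0.191, adjusted p = 1) and 0.60 (SE 0.192, adjusted p = 0.212). AJUBA was at 117 and 104 CPM in TC shNT, at 155 and 172 CPM in TC shYEATS2 and at 180 and 171 CPM in TC shZZZ3. All 4 knock-down libraries of AJUBA were above both shNT libraries, with log2 fold changes of 0.57 (adjusted p = 0.49) and 0.67 (adjusted p = 0.112). AMOTL2 was at 57.8 and 51.6 CPM in TC shNT, at 106 and 54.9 CPM in TC shYEATS2 and at 116 and 95.1 CPM in TC shZZZ3. One shYEATS2 library thus lay within the shNT range of AMOTL2 and the other far above it, whereas both shZZZ3 libraries were above it. The log2 fold changes of AMOTL2 were 0.56 (SE 0.266, adjusted p = 1) and 0.95 (SE 0.267, adjusted p = 0.14).

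The effect of a hairpin on the feedback genes differed between the lines, by a direct test of the YT change minus the TC change. For YEATS2, 2 of the 10 genes were called in this test beside 9.37% of all genes, and for ZZZ3 3 of the 10 beside 4.32%. LATS2 had a difference of -1.42 on the log2 scale for YEATS2 (95% interval -2.02 to -0.83, adjusted p = 0.00709) and of -1.84 for ZZZ3 (-2.43 to -1.24, adjusted p = 0.00417). These differences in LATS2 were called under all 9 alternative settings and with each library left out. For AJUBA the difference was -1.49 for YEATS2 (-2.04 to -0.94, adjusted p = 0.0034) and -1.45 for ZZZ3 (-2.00 to -0.90, adjusted p = 0.00911). The second of these was lost without TC shZZZ3 replicate 1 (adjusted p = 0.0546) or YT shNT replicate 2 (adjusted p = 0.0554). AMOTL2 had a difference of -2.21 for ZZZ3 (-3.05 to -1.38, adjusted p = 0.00911), which was likewise lost without TC shZZZ3 replicate 1 (-2.06, adjusted p = 0.0502) or YT shNT replicate 2 (-2.10, adjusted p = 0.0538). For YEATS2 the AMOTL2 difference was -1.30 (-2.12 to -0.47, adjusted p = 0.0536), and it was -0.71 (adjusted p = 0.152) without TC shYEATS2 replicate 1, the library with 106 CPM. It passed under 6 of the 9 alternative settings, with an adjusted p of 0.0175 by DESeq2 and 0.00656 with GC correction.

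Because the fold changes between the lines and within them come from the same 12 libraries, the order of the lines under each hairpin describes the same data from another side. In shNT, YT stood above TC in 3 feedback genes and 2 of the 10 members were called, beside 9.23% of all genes. LATS2 was higher in YT shNT by 0.85 (SE 0.192, adjusted p = 0.0182) and AJUBA by 0.90 (SE 0.178, adjusted p = 0.00893), while AMOTL2 had a log2 difference of 0.84 that was not called (SE 0.267, adjusted p = 0.076). Both calls were lost without either YT shNT library (adjusted p = 0.0585 to 0.157), and that of LATS2 also without TC shNT replicate 1 (0.76, adjusted p = 0.0885). In a fit of these 2 groups alone neither passed (adjusted p = 0.103 for LATS2 and 0.0686 for AJUBA), while AMOTL2 passed by DESeq2 (adjusted p = 0.0319) and with GC correction (0.00987). Under shZZZ3 the order was the opposite one, and 2 members were called beside 2.62% of all genes: LATS2 at -0.99 (SE 0.193, adjusted p = 0.0186) and AMOTL2 at -1.38 (SE 0.270, adjusted p = 0.0201), with AJUBA at -0.55 (adjusted p = 0.158). Each of these calls was lost when any 1 of the 4 libraries compared was left out, and in 2 other fits each, for LATS2 without either YT shNT library (adjusted p = 0.0531 and 0.0534) and for AMOTL2 without either YT shYEATS2 library (adjusted p = 0.0514 and 0.0512). The LATS2 call was lost as well in a fit of these 2 groups alone (adjusted p = 0.0645). Under shYEATS2 none of the 10 genes was called beside 12.2% of all genes, and DESeq2 called 2 beside 14.9% of all genes. An unadjusted p under 0.05 was found for 2 of the 10 and for 4792 of the 18415 genes tested. The values there were -0.57 for LATS2 (adjusted p = 0.0765), -0.59 for AJUBA (adjusted p = 0.0505) and -0.46 for AMOTL2 (adjusted p = 0.314).

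**Figure D3:**
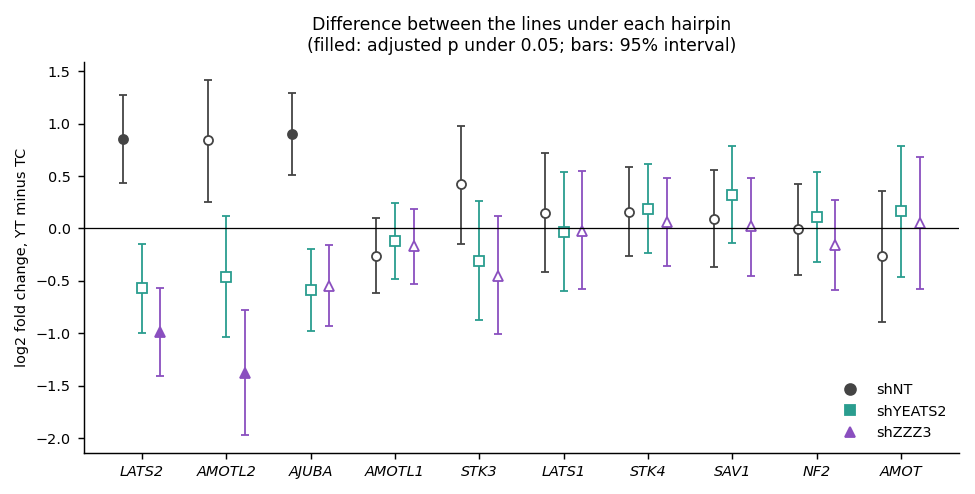
Log2 fold change of YT minus TC (vertical axis) for each gene under shNT (circles), shYEATS2 (squares) and shZZZ3 (triangles), with 95% intervals and filled points for an adjusted p under 0.05. LATS2, AMOTL2 and AJUBA lie above 0 under shNT and below 0 under both other hairpins.

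AMOTL1, the most abundant angiomotin by the mean per kilobase over the 12 libraries, moved the other way from AMOTL2 in YT. It was at 121 and 120 CPM in YT shNT, at 175 and 167 CPM after shYEATS2 and at 209 and 205 CPM after shZZZ3. The duplicates were close and the 3 groups did not overlap. AMOTL1 rose by 0.50 on the log2 scale with shYEATS2 (SE 0.164, adjusted p = 0.0484) and by 0.78 with shZZZ3 (SE 0.164, adjusted p = 0.0121). The first call was near the threshold, was lost with library totals in place of TMM (adjusted p = 0.06) and without a filter on low counts (adjusted p = 0.109), and passed in 6 of 12 fits that left out a library. It was lost without either library of YT shNT, YT shYEATS2 or TC shZZZ3 (adjusted p = 0.0848 to 0.203). The second was lost without either YT shNT library (adjusted p = 0.0981 and 0.097) and in a fit of its own 2 groups alone (adjusted p = 0.0599).

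In TC, AMOTL1 was at 147 and 142 CPM with shNT, at 166 and 206 CPM with shYEATS2 and at 222 and 243 CPM with shZZZ3. All 4 knock-down libraries were above both shNT libraries, with log2 fold changes of 0.37 (SE 0.163, adjusted p = 0.969) and 0.69 (SE 0.164, adjusted p = 0.0706). The change in YT minus that in TC was 0.14 for YEATS2 (95% interval -0.37 to 0.64) and 0.09 for ZZZ3 (-0.42 to 0.59), so that a difference between the lines was not resolved. AMOT, the founding angiomotin, ranged from 9.54 to 18.7 CPM over the 12 libraries, with both extremes in TC shYEATS2. It was called in none of the 11 contrasts, and in YT its log2 fold changes were 0.37 (-0.26 to 0.99) and 0.10 (-0.52 to 0.73). A change of AMOT by 1 on the log2 scale lay outside all 4 knock-down intervals.

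STK3, which encodes MST2, was at 26.6 and 23.3 CPM in YT shNT, at 16.9 and 12.7 CPM after shYEATS2 and at 9.21 and 15.1 CPM after shZZZ3. Both shNT libraries were above the 4 knock-down libraries, and the shZZZ3 duplicates were far apart for their level. STK3 fell by 1.04 on the log2 scale with shZZZ3 (SE 0.259, adjusted p = 0.027) and had a log2 fold change of -0.75 with shYEATS2 (SE 0.258, adjusted p = 0.0596). The value with shZZZ3 was -1.44 with replicate 2 of YT shZZZ3 left out and -0.68 with its replicate 1 left out, and passed in 5 of 12 fits that left out a library. The call was lost without YT shZZZ3 replicate 1 and without either library of YT shNT, YT shYEATS2 or TC shZZZ3 (adjusted p = 0.0515 to 0.204). It was also lost with library totals (adjusted p = 0.0567) and in the fit of its own groups alone (0.074), whereas the value with shYEATS2 passed by DESeq2 (0.0365) and in the fit of its own groups alone (0.00201). With a correction for GC content it was -0.89 (adjusted p = 0.00535) for shZZZ3 and -0.30 (adjusted p = 0.226) for shYEATS2. In TC, STK3 ranged from 16.3 to 20.8 CPM over the 6 libraries, with log2 fold changes of -0.03 (95% interval -0.59 to 0.53) and -0.18 (-0.74 to 0.39). The difference between the lines was -0.72 (adjusted p = 0.252) for YEATS2 and -0.86 (adjusted p = 0.246) for ZZZ3, and was not called.

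The other kinases and the scaffolds SAV1 and NF2 were called in none of the 11 contrasts with the TMM fit. STK4, which encodes MST1, ranged from 75.5 to 110 CPM over the 12 libraries. Its log2 fold changes in YT were 0.04 (95% interval -0.38 to 0.46) with shYEATS2 and -0.02 (-0.44 to 0.40) with shZZZ3, although a GC correction gave 0.33 (adjusted p = 0.0415) for shYEATS2. LATS1 ranged from 16.2 to 25.6 CPM, with both extremes in TC shNT. In YT its log2 fold changes were -0.26 (-0.83 to 0.31) and -0.06 (-0.63 to 0.50). These intervals leave room for changes in LATS1 of moderate size, but the estimate for LATS2 was beyond them with either hairpin. With shYEATS2 the interval of LATS2 (-1.66 to -0.81) overlapped that of LATS1. The changes of LATS1 and LATS2 were not compared by a test.

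SAV1, the scaffold of the MST kinases, ranged from 21.8 to 33.7 CPM, with log2 fold changes in YT of 0.08 (-0.39 to 0.54) and -0.29 (-0.76 to 0.17). NF2 ranged from 63.9 to 91.3 CPM, with log2 fold changes in YT of 0.14 (-0.29 to 0.57) and 0.15 (-0.28 to 0.58). For TC, the knock-down values of these 4 genes lay between -0.22 (SAV1, shZZZ3) and 0.30 (NF2, shZZZ3). The hairpins were also compared directly, and 0 of the 10 genes were called between shZZZ3 and shYEATS2 in TC (1.20% of all genes) or in YT (7.21% of all genes). No member had an unadjusted p under 0.05 in these contrasts, where 1824 (TC) and 3827 (YT) of the 18415 genes tested had. DESeq2 called 0 members in both (492 and 1797 genes in all). With GC correction, however, STK3 (-0.59, adjusted p = 0.0497) and SAV1 (-0.47, adjusted p = 0.0302) were called in YT.

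Within the paralog pairs, the ratio of levels per kilobase moved in YT. LATS2 to LATS1 was 2.76 and 3.52 in YT shNT, 1.47 and 1.70 after shYEATS2 and 1.53 and 1.25 after shZZZ3. STK4 to STK3 was 2.80 and 3.29 in YT shNT, 4.96 and 5.65 after shYEATS2 and 7.37 and 5.39 after shZZZ3. AMOTL1 to AMOTL2 was 0.828 and 0.768 in YT shNT, 1.85 and 1.92 after shYEATS2 and 3.03 and 3.60 after shZZZ3. In each of these ratios the shNT libraries did not overlap the knock-down libraries, and AMOTL2 exceeded AMOTL1 per kilobase in YT shNT alone among the 6 group means.

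In TC the same ratios were less regular. LATS2 to LATS1 was 2.35 and 1.63 with shNT, 2.85 and 1.81 with shYEATS2 and 2.71 and 2.65 with shZZZ3. AMOTL1 to AMOTL2 was 1.64 and 1.77 with shNT, 1.0 and 2.42 with shYEATS2 and 1.23 and 1.65 with shZZZ3. STK4 to STK3 was 3.45 and 3.73 with shNT, 3.42 and 4.02 with shYEATS2 and 4.27 and 4.37 with shZZZ3. The shYEATS2 and shNT libraries thus overlapped in all 3 pairs. These ratios are a description and were not tested, the exact permutation test of 2 libraries against 2 having a smallest two-sided p of 0.333. Another transcript length would multiply a ratio by the same factor in all libraries.

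**Figure D4:**
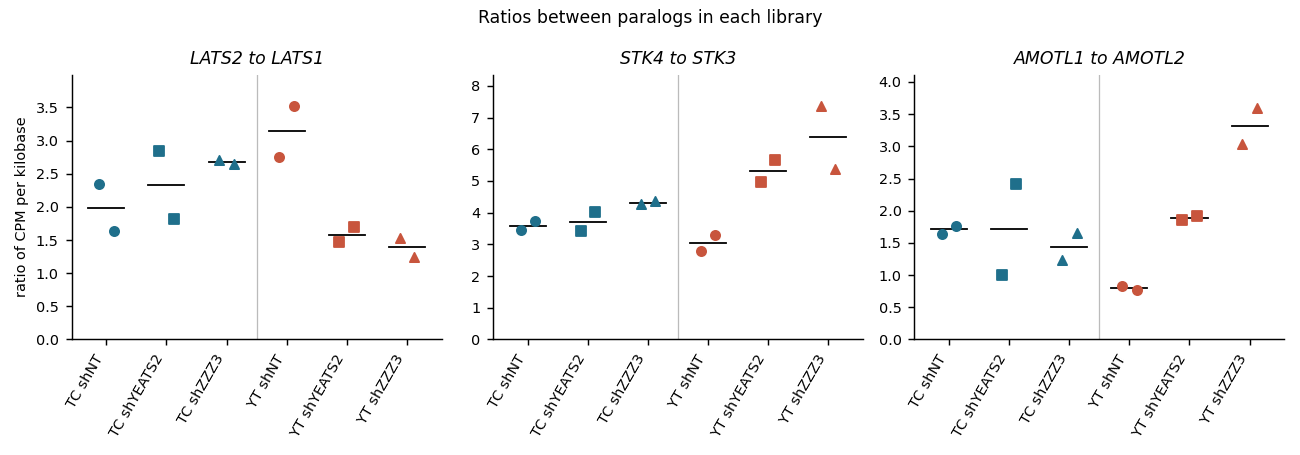
Ratio of CPM per kilobase (vertical axes, from 0) between paralogs in each library, with bars for group means. In YT shNT the AMOTL1 to AMOTL2 ratio has a mean of 0.798, against 1.88 in YT shYEATS2 and 3.31 in YT shZZZ3.

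The duplicates of a group differed along the GC content of the 10 genes, which ran from 37.4% for STK3 to 56.3% for AMOTL2. Over the 10 genes, the Pearson correlation of GC content with the log2 ratio of replicate 1 to replicate 2 was 0.89 in TC shNT, 0.55 in TC shYEATS2, 0.39 in TC shZZZ3, -0.76 in YT shNT, -0.70 in YT shYEATS2 and 0.92 in YT shZZZ3. These are descriptions over genes that share 2 libraries, with no test. The AT-rich genes STK3 and LATS1 had some of the wider gaps, with a log2 ratio of -0.71 for STK3 in YT shZZZ3 and of -0.66 for LATS1 in TC shNT. In TC shYEATS2 the gaps of AMOT (0.97) and AMOTL2 (0.95) were wider than that. With GC correction 5 of the 10 genes were called with shYEATS2 in YT (31% of all genes) and 3 with shZZZ3 in TC (3.70% of all genes), namely AMOTL1 at 0.63 (adjusted p = 0.0192), AMOTL2 at 0.90 (adjusted p = 0.0451) and AJUBA at 0.60 (adjusted p = 0.0151).

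**Figure D5:**
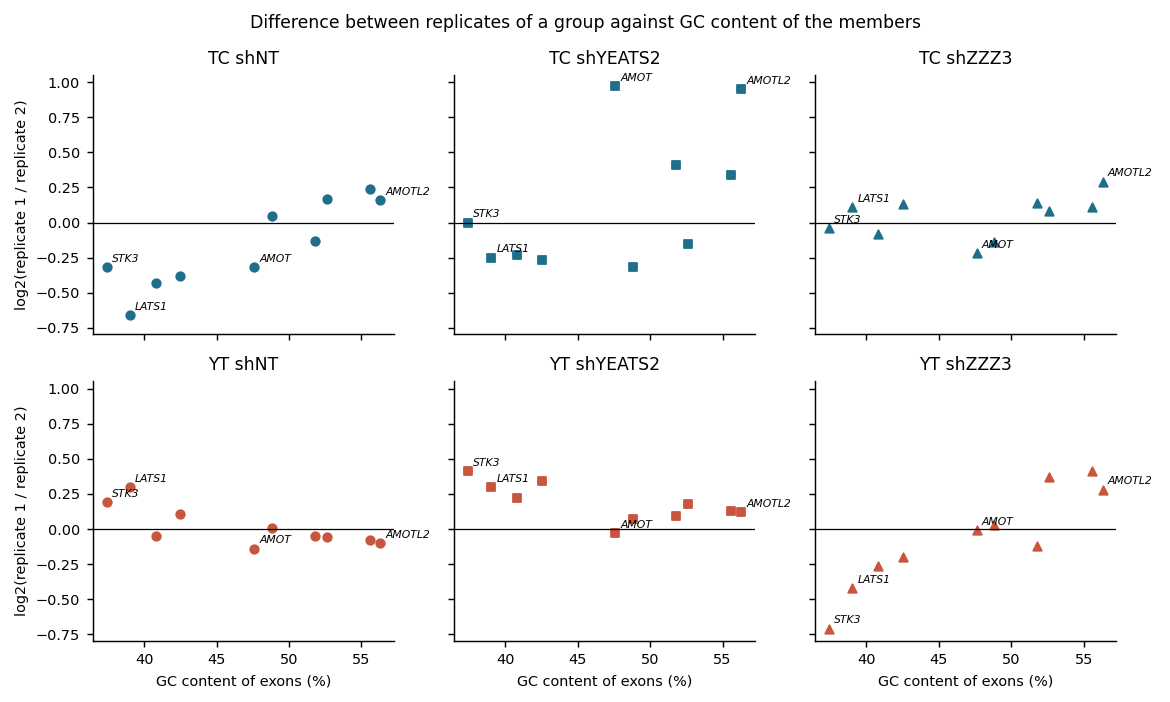
Log2 ratio of replicate 1 to replicate 2 (vertical axes) against GC content of the longest transcript (horizontal axes, labelled as exons) for the 10 genes in each group. The points slope upward in TC shNT and YT shZZZ3 and downward in YT shNT and YT shYEATS2.

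Among 64 other genes of the pathway, 63 were tested (all but RASSF6). In TC 0 of 63 were called with shYEATS2 (1 at an unadjusted p under 0.05, 0 by DESeq2). With shZZZ3 in TC 0 of 63 were called (6 at an unadjusted p under 0.05, 1 by DESeq2). Over all 18415 genes tested, 927 and 1991 had an unadjusted p under 0.05 in these contrasts, and DESeq2 called 117 and 532. In YT 10 of 63 were called with shYEATS2, 5 higher and 5 lower, and 4 with shZZZ3, 2 higher and 2 lower. These shares, 15.9% and 6.3%, were below the 20.7% and 10% of all genes. By role, 4 of 9 junction and polarity scaffolds were called with shYEATS2 in YT, and 1 of 9 with shZZZ3.

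WWC1 (KIBRA), a scaffold that acts with NF2, was at 16.3 and 16.9 CPM in YT shNT and at 4.29 and 2.99 CPM in YT shYEATS2, and fell by 2.18 on the log2 scale (SE 0.280, adjusted p = 3.60e-04). Its relative WWC2 was at 80.9 and 73.4 CPM in YT shNT and at 35 and 29.9 CPM in YT shYEATS2, and fell by 1.25 (SE 0.247, adjusted p = 0.00478). FRMD6 (willin), a FERM domain protein upstream of the cascade, went from 261 and 217 CPM to 696 and 487 CPM and rose by 1.31 (SE 0.242, adjusted p = 0.00331). The 14-3-3 protein YWHAQ, of a family that binds phosphorylated YAP and TAZ, rose by 0.82 with shYEATS2 (adjusted p = 0.00525) and by 0.62 with shZZZ3 (adjusted p = 0.0342) in YT. The scaffold genes thus changed in both directions. The calls of WWC1 and FRMD6 were kept in all 12 fits that left out a library, that of WWC2 was lost without YT shYEATS2 replicate 2 (adjusted p = 0.0696) and those of YWHAQ without YT shNT replicate 1 (adjusted p = 0.0675 with shYEATS2), and with shZZZ3 in 4 other fits as well.

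RASSF2, which binds MST kinases, was at 6.92 and 6.96 CPM in YT shNT and at 34.8 and 33.3 CPM in YT shZZZ3, and rose by 2.29 (SE 0.218, adjusted p = 2.63e-04). Its level in TC shNT, 20.3 and 17.4 CPM, was also above that in YT shNT (YT minus TC -1.44, adjusted p = 0.00184). WWC3 went from 68.1 and 77.2 CPM in YT shNT to 42.9 and 42.6 CPM in YT shZZZ3 (-0.76, SE 0.185, adjusted p = 0.0232) and its shNT level was higher in YT than in TC (0.88, adjusted p = 0.0126). TAOK3, a kinase of the family that can activate MST kinases, went from 35.5 and 34.2 to 16.7 and 22 CPM with shZZZ3 (-0.85, SE 0.226, adjusted p = 0.036). Between the shNT groups 4 of 63 were called (6.3%, beside 9.23% of all genes), the others being STRIP2 of the STRIPAK phosphatase complex (-0.90, adjusted p = 0.0292) and WWC2 (0.86, adjusted p = 0.0493). Both calls of RASSF2 were kept with each library left out. Fits that left out 1 of the 12 libraries lost the calls of WWC3 in 5 fits with shZZZ3 and in 2 between the shNT groups, of TAOK3 in 9, of STRIP2 in 7 and of WWC2 between the shNT groups in 9, in each case including those without either YT shNT library.

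The genes whose level followed the feedback genes most closely over the 12 libraries were sought among 13257 genes by Pearson correlation, given as a description, since the points share groups, libraries and their normalisation. LATS2 was most like NSMAF (r = 0.95), CMKLR2 (0.95) and PIM1 (0.93). AMOTL2 was most like PLEKHA6 (0.96), CCN2 (0.95) and PIM1 (0.93), and AJUBA most like the amino acid transporter genes SLC7A5 (0.98) and SLC1A5 (0.97) and LARP1 (0.95). PIM1 stood in the lists of both LATS2 and AMOTL2, with group means of 16.5, 24.2 and 31.3 CPM in TC shNT, TC shYEATS2 and TC shZZZ3 and of 29.4, 13.3 and 13.2 CPM in YT shNT, YT shYEATS2 and YT shZZZ3. SLC7A5 had group means of 208, 501 and 487 CPM in TC and of 794, 156 and 205 CPM in YT, in the same order of groups. Among the members themselves, r was 0.87 for LATS2 with AMOTL2, 0.84 for LATS2 with AJUBA and 0.77 for AMOTL2 with AJUBA, whereas for LATS2 with AMOTL1 it was -0.33. Other target genes of YAP and TAZ did not all move like CCN2 in YT. CCN2 had log2 fold changes of -0.67 with shYEATS2 and -0.91 with shZZZ3 (edgeR adjusted p = 0.0571 and 0.0269). CCN1 had 0.99 and 0.15 (adjusted p = 0.0202 and 0.768). ANKRD1, at a mean of 0.847 CPM in YT shNT, had 3.10 and 2.96 (adjusted p = 1.94e-04 and 8.25e-04).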

How the data were processed

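Poly(A)-selected stranded RNA-seq libraries were made from the SW872 lines by the authors, who aligned paired reads to hg38 with HISAT2 within bcbio-nextgen and deposited whole-number read counts per gene. Salmon with tximport is also named. Which step made the deposited counts, and its handling of strand and of multi-mapped reads, is not given in the sources used here. The counts were analysed as deposited with edgeR 4.0.16 in R 4.3.3. A mean count of 5 or more over all 12 libraries was required of a gene, TMM factors were computed, and 1 quasi-likelihood fit over the 6 groups gave 11 contrasts, with Benjamini-Hochberg adjustment over 18415 genes and a threshold of 0.05. Intervals are 95% intervals from the fit. Levels per kilobase used merged exon lengths of GENCODE 44, whereas gene GC content was that of the longest transcript of the gene. Settings tried in turn are given with their effects in the last section, among them DESeq2 1.42.0. The members and lists were chosen with earlier results of these data known. Every member is named. Of the other pathway genes, the 4 smallest adjusted p called in a knock-down contrast or between the shNT groups were named where the groups did not overlap, and for likeness the 3 genes with the highest correlation among genes averaging 50 counts or more. Depth was 17451893 to 29294805 counts. Counting error was not compared with the spread between duplicates. That spread was very small for some low members (AMOT at 13.2 and 13.3 CPM in YT shZZZ3).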

Additional observations from a re-analysis of the deposited data

Results flagged for a closer look

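These values were flagged because the change with a hairpin in YT differed from that in TC in the direct test of this difference (edgeR, adjusted over all genes). They are given as log2 differences, YT minus TC. LATS2 had -1.42 for YEATS2 (adjusted p = 0.00709) and -1.84 for ZZZ3 (adjusted p = 0.00417). AJUBA had -1.49 for YEATS2 (adjusted p = 0.0034) and -1.45 for ZZZ3 (adjusted p = 0.00911). AMOTL2 had -2.21 for ZZZ3 (adjusted p = 0.00911). WWC1 had -2.71 for YEATS2 (adjusted p = 0.00125) and -1.85 for ZZZ3 (adjusted p = 0.0182). FRMD6 had 1.59 for YEATS2 (adjusted p = 0.0133), WWC2 -1.35 for YEATS2 (adjusted p = 0.0319) and RASSF2 2.45 for ZZZ3 (adjusted p = 0.00148). With 1 library left out, the call was lost for WWC1 and ZZZ3 in 4 fits, for FRMD6 in 3 and for WWC2 in 8. All of them draw on the same 2 YT shNT and 2 TC shNT libraries. With 2 libraries in a group, no test for a library far from the others of its group was made.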

How the results depend on the processing

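Over 9 alternative settings and 12 fits that each left out a library, no called member value changed sign. Counts of members called that moved by over 1.5 times were as follows. For TC shZZZ3, 0 became 1 without a count filter and 3 with DESeq2, with GC correction, and with the replicate block and GC correction. For YT shYEATS2, 3 became 5 with the contrast alone (a fit of only its own groups), with GC correction and with the block and GC correction. For YT shZZZ3, 5 became 2, for YT against TC in shNT 2 became 0, and in shZZZ3 2 became 1, with the contrast alone. YT against TC in shZZZ3 gave 4 with GC correction, with or without the block. In shYEATS2, 0 became 1 with library totals, filterByExpr, the contrast alone or the replicate block, and 2 with DESeq2 or GC correction, with or without the block. Between hairpins in YT, 0 became 2 (STK3 and SAV1) with GC correction, with or without the block. The share of all genes called moved as well, with GC correction from 20.7% to 31% in YT shYEATS2 and from 1.53% to 3.70% in TC shZZZ3. With DESeq2 it was 2.89% in TC shZZZ3. The share of all genes under the other settings is not given here, so these counts are not read as particular to the members. The cause of the shifts was not tested.

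Of the 63 other pathway genes, those called in TC shZZZ3 went from 0 to 2 without a filter, 1 with DESeq2, 4 with GC correction and 4 with the block and GC correction. In YT shYEATS2, 10 became 32 with the contrast alone, 19 with GC correction and 23 with the block and GC correction. With GC correction the share of all genes called there also rose, from 20.7% to 31%. In YT shZZZ3, 4 became 7 without a filter, 10 with DESeq2, 1 with the contrast alone, 7 with the replicate block, 17 with GC correction and 21 with the block and GC correction. Between the shNT groups, 4 became 2 with library totals, 7 without a filter, 1 with the contrast alone, 10 with GC correction and 13 with the block and GC correction. Over all genes, DESeq2 called 2355 in YT shZZZ3 where edgeR called 1846, and 532 in TC shZZZ3 where edgeR called 281. Shares of all genes under most other settings are not given here, so these counts are not read as particular to the pathway.

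With 1 library left out, members called ranged from 0 to 0 in TC shYEATS2, 0 to 2 in TC shZZZ3, 2 to 5 in YT shYEATS2 and 1 to 5 in YT shZZZ3 (1 without either YT shNT library). They ranged from 2 to 3 for the YEATS2 difference between lines and 1 to 3 for the ZZZ3 difference (1 without TC shZZZ3 replicate 1 or YT shNT replicate 2). Between lines they ranged from 0 to 3 in shNT (0 without either YT shNT library, 1 without TC shNT replicate 1), 0 to 2 in shYEATS2 and 0 to 2 in shZZZ3 (0 without any of its 4 libraries), and between hairpins from 0 to 0 in TC and in YT. Other pathway genes called ranged from 0 to 0 in TC shYEATS2, 0 to 2 in TC shZZZ3, 3 to 17 in YT shYEATS2, 1 to 11 in YT shZZZ3 and 1 to 13 between the shNT groups. A group left with 1 library was assumed to vary like the other groups. The share of all genes called in these fits is not given here, so the ranges are not read as particular to these genes.

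Replicate numbers were shared by all groups. The deviations of same-numbered libraries correlated from -0.44 (TC shNT with YT shNT) to 0.90 (TC shNT with YT shZZZ3) between groups over 13258 genes. Some groups thus deviated alike and others in opposite directions, so that the number does not mark 1 pairing common to all groups. What these deviations reflect was not tested. With the block, the AMOTL2 values for YT shYEATS2 (-0.74, adjusted p = 0.031), the YEATS2 difference between lines (-1.27, adjusted p = 0.0232) and YT against TC in shNT (0.85, adjusted p = 0.0306) passed. The replicate block changed the member counts given above and no others by over 1.5 times. Another scaling moved the median of all genes by at most 0.08 on the log2 scale. With 2 libraries in a group, changes of the size left by the intervals in the report could not be resolved.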
